A study of Vitis vinifera with 6 samples.

Results

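The genes described here are 5 components of blue-light and UV-B signalling in grapevine leaves, chosen by identifier: the cryptochrome gene *CRY1* (VIT_18s0001g05680), *UVR1* (VIT_07s0031g02560), a homologue of the UV-B receptor gene *UVR8*, the ubiquitin ligase gene *COP1* (VIT_12s0059g01420), and a pair of bZIP transcription factor genes, *HY5* (VIT_04s0008g05210) and *HYH* (VIT_05s0020g01090). Each identifier had 1 probe among the 34369 non-control probes of the array, so that all 5 genes were measured, each by a single spot per array. The tables of the study annotate VIT_05s0020g01090 as HY5 and as a bZIP factor, whereas the list used here calls it *HYH*, so that the names of the bZIP pair depend on the source and the identifiers should be taken as decisive. Whether the probes of *HY5* and *HYH* also bind each other's RNA was not tested.

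Leaf RNA came from *Vitis vinifera* cv Shiraz and was hybridized to 6 single-colour arrays. Of these, 3 carried young leaves of OXNAC33 plants, which stably overexpress the NAC transcription factor gene *VviNAC33*, and 3 carried young leaves of control plants. The labels place the sampling at the first appearance of the phenotype, whereas the text of the study describes this comparison as one made earlier than that, so that the stage is known only as close to it. According to the methods, the transgene was driven by a constitutive viral promoter and was therefore not restricted to a cell type. The methods give a green fluorescent protein vector for the controls, and the overexpression vector also held a cassette for this protein, while the labels call these plants only control. Independent transgenic lines were the OXNAC33 replicates. Leaves were pooled within a line, so that line and replicate cannot be told apart, and the sources do not state which control plant gave which array.

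In *Arabidopsis thaliana*, where this pathway is best known, cryptochromes absorb blue light and UVR8 absorbs UV-B. Both activated receptors bind COP1, the part of a ubiquitin ligase that marks light-response factors for breakdown in the dark. HY5 and its homologue HYH are among these factors, and when they accumulate they switch on genes of photomorphogenesis and of flavonoid synthesis. In grapevine leaves and berries, the same components are linked to the accumulation of flavonols as a sunscreen.

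The whole data set gave the frame for these genes. The 75th percentile of the processed intensity ran from 773 to 1303 between arrays, and 69.4% to 74.9% of probes were well above background. Levels are given as log2 of the processed intensity relative to the 75th percentile of the same array, which limits comparison to 1 gene at a time. The groups were tested against each other in limma over 23907 probes, with Benjamini-Hochberg adjustment and a threshold of 0.05. It called 1200 of them (5.02%), 405 higher (1.69%) and 795 lower (3.33%) in OXNAC33 leaves. This split, 66.2% lower, depended on the scaling. The calls were 72.8% lower (370 higher, 989 lower) with the 75th percentile of detected probes only, 55.4% lower (596 higher, 741 lower) under median scaling of the arrays and 32.1% lower (596 higher, 282 lower) under spike-in scaling. The arrays belonged to 2 scan sessions, each with arrays of both groups. Arrays of the first session (control replicate 1 and OXNAC33 replicates 1 and 2) had 376 to 607 outlier flags, and those of the second 6 to 20. The overexpressed gene itself read -5.22, -4.14 and -4.01 in control replicates 1, 2 and 3. It read -0.54, -3.89 and -0.998 on the arrays labelled OXNAC33 replicates 1, 2 and 3. The second of these lay above the highest control by less than the controls differed from each other, so its label could not be checked by this gene. Between the groups *VviNAC33* differed by 2.65 (SE 0.88), and limma gave it an adjusted p of 0.116, above 0.05. By qPCR, the study picked the lines that expressed this gene most, OX2 above all, and hybridized the same RNA. It does not match lines to replicate numbers. A near-control level on an OXNAC33 array is at odds with that choice, and the reason was not tested. The OXNAC33 means that follow include this array unless its spot was left out. The 4 leaf markers, all photosystem and light-harvesting genes, were well above background on all arrays and overlapped between groups, with levels of 1.32 to 6.36 and 1 outlier spot left out. Of 2 genes annotated as phloem proteins, *PP2-A9* was higher on every OXNAC33 array (mean 3.98 against 2.69, limma, adjusted p = 0.0602) and the phloem lectin gene overlapped between groups. The part of vascular tissue in the results was not tested. In whole leaves, a different share of cells that express a gene and a different amount of its RNA per cell cannot be told apart.

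All 30 spots of the 5 genes were well above background, none was saturated, and none carried an outlier flag. Their processed intensities lay between 168 and 9281, over local backgrounds of 21.0 to 31.0. Of the 5 genes, 4 had higher levels on every OXNAC33 array than on any control, namely *CRY1*, *COP1*, *HY5* and *HYH*, whereas *UVR1* stayed within the range of the controls. Among all probes tested, 15.1% were higher without overlap between the groups and 20.4% lower, together 35.5%. None of the 5 genes passed the threshold in limma, their adjusted p-values being 0.0521 to 0.937. With an unadjusted p, 3 of the 5 were under 0.05, as were 27.3% of all probes. The 3 were *CRY1*, *COP1* and *HYH*, and these also had an unadjusted p under 0.05 by the methods' t-test, against 24.3% of all probes. With a fold difference of at least 1.5 in addition it was the same 3, against 18.6% of all probes, and after Benjamini-Hochberg adjustment of that test it was none of them. The plot of levels by array shows these values.

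**Figure D1:**
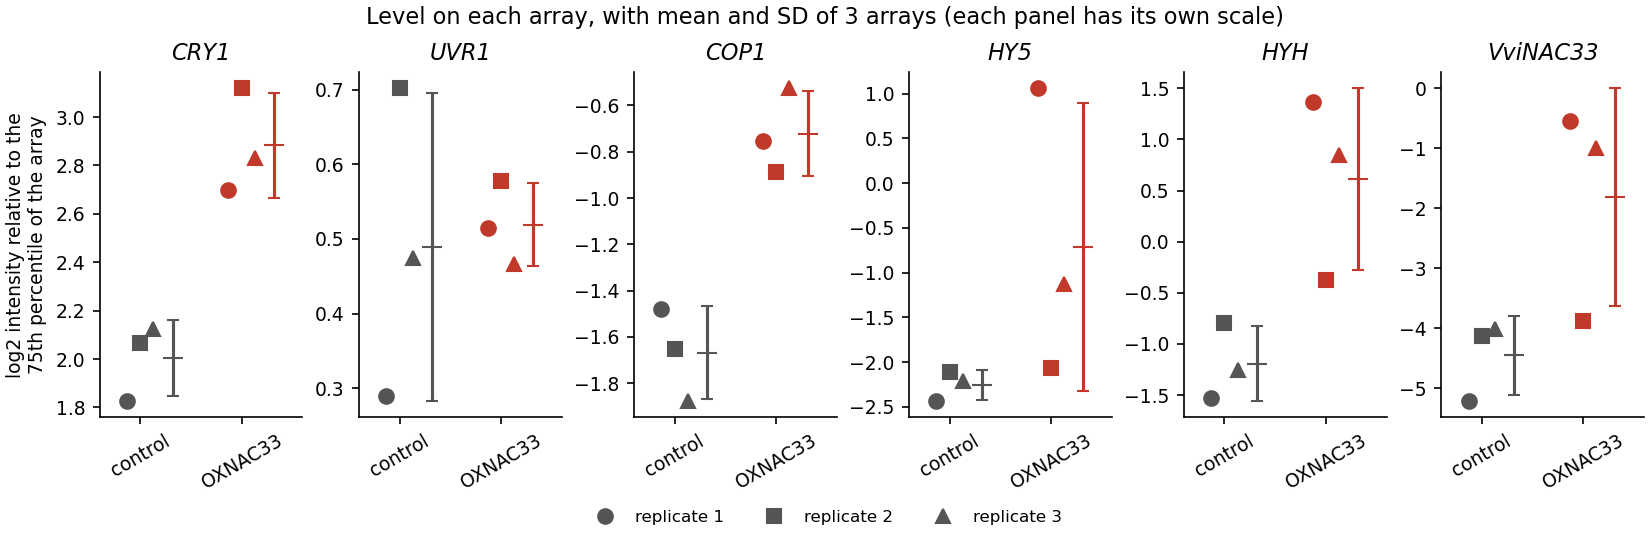
Log2 processed intensity after subtraction of the 75th percentile (vertical axis, own scale in each panel) for the 5 light signalling genes and *VviNAC33* in control (grey) and OXNAC33 (red) leaves. Symbols mark the replicate and bars the mean and SD of 3 arrays. *CRY1*, *COP1*, *HY5* and *HYH* lay higher on all 3 OXNAC33 arrays than on any control, and the OXNAC33 arrays of *UVR1* lay between 0.47 and 0.58, inside the control range.

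Of the photoreceptor genes, *CRY1*, which encodes the blue-light receptor cryptochrome 1, read 1.83, 2.07 and 2.12 in control replicates 1 to 3. On the arrays labelled OXNAC33 replicates 1 to 3 it read 2.70, 3.12 and 2.83. The lowest OXNAC33 value exceeded the highest control by more than the whole range of the controls. The means were 2.005 ± 0.16 in controls and 2.88 ± 0.22 in OXNAC33 leaves (SD, n = 3 each), a difference of 0.88 (SE 0.21) or 1.84-fold, with a 95% interval of 1.31-fold to 2.59-fold (limma, adjusted p = 0.0587). It passed the threshold with trend and robust estimation (adjusted p = 0.0375), a setting that called 7.55% of all probes. Over the alternatives that kept every array, the adjusted p reached 0.172, with spike-in scaling. On leaving out single arrays it was 0.0766 to 0.164. Among all probes tested, 78.8% differed by no more than *CRY1* did. Inside the scan sessions, the difference was 1.08 in the first and 0.74 in the second. *CRY1* was highest on the array labelled OXNAC33 replicate 2, which had the lowest *VviNAC33* level of the OXNAC33 arrays.

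*UVR1*, whose homologue in *Arabidopsis* is the UV-B receptor, read 0.29, 0.70 and 0.47 in control replicates 1 to 3 and 0.51, 0.58 and 0.47 in OXNAC33 replicates 1 to 3. The OXNAC33 arrays all lay between the lowest and the highest control and close to each other. The means were 0.49 ± 0.21 and 0.52 ± 0.06 (SD, n = 3 each), with a difference of 0.030 (SE 0.19) or 1.02-fold. The 95% interval ran from 0.742-fold to 1.41-fold (limma, adjusted p = 0.937), so that the 6 arrays do not exclude a change inside this interval. Its sign was not fixed, being 0.26 and -0.12 inside the sessions and -0.029 with the 75th percentile of detected probes only. Only 4.15% of probes differed by as little as *UVR1* or less.

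*COP1*, the ubiquitin ligase gene between receptors and transcription factors, was the closest of the 5 to the threshold. It read -1.48, -1.65 and -1.88 in control replicates 1 to 3. It read -0.75, -0.89 and -0.52 in OXNAC33 replicates 1 to 3, so that the groups were clearly apart and the spread was similar in both. The means were -1.67 ± 0.20 and -0.72 ± 0.18 (SD, n = 3 each), a difference of 0.95 (SE 0.21) or 1.93-fold with a 95% interval of 1.37-fold to 2.72-fold (limma, adjusted p = 0.0521). It passed the threshold with quantile scaling (adjusted p = 0.0468), with the processed values of the authors (0.0488) and with only probes detected on all arrays (0.0481), settings that called 5.68%, 6.16% and 5.81% of all probes tested. The last 2 gave the same difference of 0.95 over fewer probes (22655 and 22164, against 23907), so they are not separate support. The adjusted p was 0.0424 with trend and robust estimation (7.55% of all probes called) and 0.0463 on leaving out OXNAC33 replicate 2 (10.7%). On leaving out any other array it was 0.104 to 0.164. Over all alternatives that kept every array it reached 0.206, with normexp background correction, which also lowered the difference to 0.63. Inside the sessions, the difference was 0.66 and 1.24.

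The bZIP pair spread more widely between the OXNAC33 arrays than the genes above, with SDs of 1.61 and 0.89, a difference in spread that was not tested. *HY5*, which in *Arabidopsis* promotes photomorphogenesis and is a substrate of COP1, read -2.44, -2.11 and -2.21 in control replicates 1 to 3, a range of less than 1 log2 unit. On the arrays labelled OXNAC33 replicates 1 to 3 it read 1.06, -2.07 and -1.13. The value of OXNAC33 replicate 2 was barely above the top control, nearer to it than the controls were to each other, whereas OXNAC33 replicate 1 was 3.32 above the control mean. The means were -2.25 ± 0.17 and -0.71 ± 1.61 (SD, n = 3 each). The difference of 1.54 (SE 0.74) or 2.91-fold had a 95% interval from -0.24 to 3.32 on the log2 scale, which includes 0 (limma, adjusted p = 0.237). It became 0.65 (adjusted p = 0.295) on leaving out OXNAC33 replicate 1 and 2.22 (adjusted p = 0.0883) on leaving out OXNAC33 replicate 2, so the size of the *HY5* difference rested on single arrays. Inside the sessions it was 1.94 and 1.03.

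*HYH*, whose product acts beside HY5 in *Arabidopsis*, had the largest mean difference of the 5 genes. It read -1.53, -0.80 and -1.25 in control replicates 1 to 3 and 1.37, -0.37 and 0.84 in OXNAC33 replicates 1 to 3. The groups did not overlap, but the lowest OXNAC33 value, again that of replicate 2, stood closer to the top control than the controls were spread. The means were -1.19 ± 0.37 and 0.61 ± 0.89 (SD, n = 3 each), a difference of 1.80 (SE 0.46) or 3.49-fold with a 95% interval of 1.62-fold to 7.54-fold (limma, adjusted p = 0.0701). It passed the threshold with spike-in scaling (2.06, adjusted p = 0.0238), which called 3.67% of all probes. It also passed on leaving out OXNAC33 replicate 2 (2.30, adjusted p = 0.0223), which called 10.7% of all probes. On leaving out any other array the adjusted p was 0.135 to 0.195. Over the alternatives that kept every array it reached 0.176, by the methods' t-test after Benjamini-Hochberg adjustment. Inside the sessions the difference was 2.02 and 1.87. Among all probes tested, 94.7% differed by no more than *HYH* did, and 92.1% by no more than *HY5* did.

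**Figure D2:**
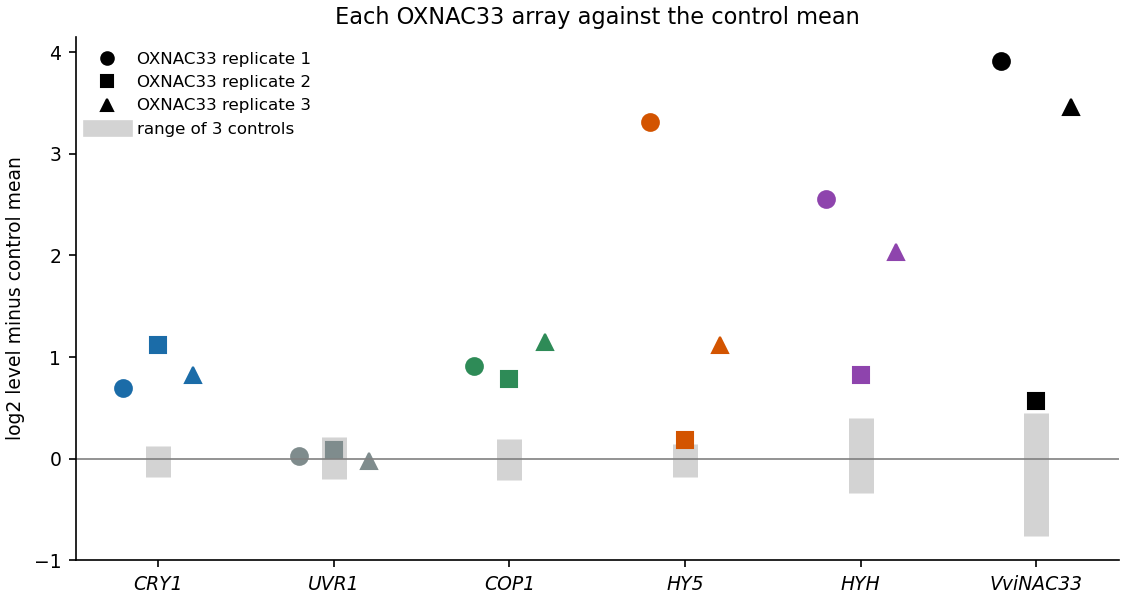
Log2 level of each gene on each OXNAC33 array minus the mean of the 3 controls (vertical axis), with the range of the controls as a grey bar. The circle (replicate 1) is highest for *HY5*, *HYH* and *VviNAC33* and the square (replicate 2) lowest, while for *CRY1* the square is highest, at 1.12.

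The order of the OXNAC33 arrays was the same for *HY5*, *HYH* and *VviNAC33*, with replicate 1 highest and replicate 2 lowest. Relative to the control mean, *HY5* stood at 3.32, 0.19 and 1.12 on the arrays labelled OXNAC33 replicates 1 to 3. *HYH* stood at 2.56, 0.82 and 2.03 on the same arrays. The order of *COP1* was different, with 0.92, 0.78 and 1.14, and that of *CRY1* was different again, with 0.69, 1.12 and 0.83. With 3 arrays a single order is shared by many genes, and the likeness was not tested. Across the 6 arrays, Pearson's r between *HY5* and *HYH* was 0.892, and it was 0.863 after the mean of each group had been taken off. Between *CRY1* and *COP1*, r was 0.822 across the 6 arrays and -0.699 after the group means had been taken off. These correlations describe 6 arrays that share 1 scaling, and carry no test.

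Whether the genes differed from each other was examined through ratios within each array, which do not depend on scaling by 1 constant per array. Quantile scaling and normexp can change such ratios, and the ratios were not computed under them. Of the 10 pairs, 4 had ratios that did not overlap between OXNAC33 and control leaves, and all 4 involved *UVR1*. They largely repeat that the other 4 genes were higher without overlap while *UVR1* was not. The share of all pairs of probes without overlap was not computed, and for single probes it was 35.5%. The ratio of *CRY1* to *UVR1* was higher in OXNAC33 leaves by 0.85 on the log2 scale, that of *HY5* to *UVR1* by 1.51 and that of *HYH* to *UVR1* by 1.77. The ratio of *UVR1* to *COP1* differed by -0.92. In exact two-sided permutation tests over the arrays each of these gave p = 0.1, the smallest that 3 against 3 arrays allow, and 0.25 after Benjamini-Hochberg adjustment over the 10 pairs. For the 6 pairs without *UVR1* the ratios overlapped between the groups. The ratio of *CRY1* to *COP1* differed by -0.07 (exact permutation p = 1), with SDs of 0.35 in controls and 0.35 in OXNAC33 leaves, and that of *HY5* to *HYH* by -0.26 (exact permutation p = 0.6).

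**Figure D3:**
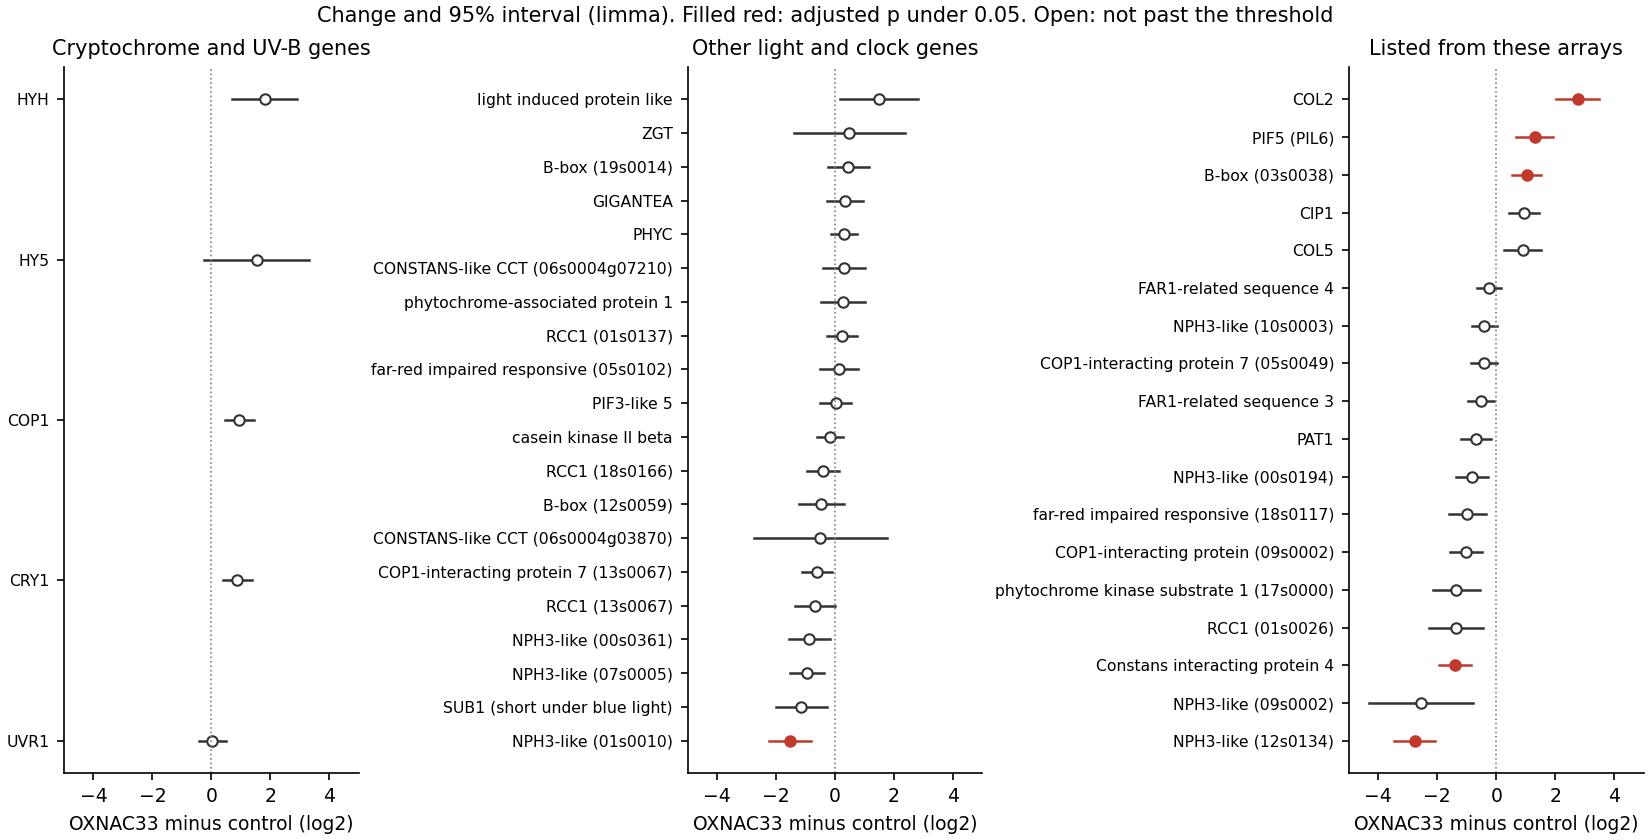
Difference between OXNAC33 and control leaves on the log2 scale with its 95% interval (horizontal axis) for the 5 light signalling genes, the other light and clock genes and the genes that the study listed from these same arrays. Filled red points passed an adjusted p of 0.05 in limma, and these were none of the 5 genes at the left, 1 gene in the middle and 5 at the right.

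The wider pathway was examined with 23 further genes that carry a light-signalling or clock annotation in tables the study made from other experiments (co-expression in an atlas, binding of VviNAC33 and a transient experiment), some of which also stand in the list the study drew from these arrays. Of these, 20 were tested, and 10 had a higher and 10 a lower mean in OXNAC33 leaves. Their median difference was -0.08, against -0.01 for all probes tested. Only 1 of the 20 passed the threshold, and it was lower, where 3.33% of all probes were called lower. Without overlap, 2 were higher and 8 lower, beside the 15.1% and 20.4% of all probes. The called gene encodes a protein related to NPH3 (VIT_01s0010g01390), a family that in *Arabidopsis* includes a partner of the blue-light receptor phototropin. It read -0.94, -1.16 and -1.61 in control replicates 1 to 3 and -2.44, -2.59 and -3.27 in OXNAC33 replicates 1 to 3, which left a clear gap. It fell by 1.53 (SE 0.30, limma, adjusted p = 0.0461). Of the 6 fits that left out 1 array each, only the fit lacking OXNAC33 replicate 2 kept the call, and with the session block no probe was called.

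The other NPH3-related genes of this list were not called. VIT_07s0005g06300 differed by -0.95 (limma, adjusted p = 0.0701) and VIT_00s0361g00090 by -0.87 (limma, adjusted p = 0.114), both without overlap. *SUB1*, annotated as short under blue light, read 2.34, 1.95 and 2.04 in controls and 0.75, 1.76 and 0.41 in OXNAC33 leaves. Its difference of -1.14 did not pass (limma, adjusted p = 0.109), and OXNAC33 replicate 2 lay near the controls. Its adjusted p was 0.0265 when that array was left out, a fit that called 10.7% of all probes. This value reached 0.248 on leaving out another array, and was 0.0764 to 0.426 over the alternatives that kept every array. A gene annotated as a light-induced protein (VIT_19s0090g01180) had the largest higher mean, with a difference of 1.48 (limma, adjusted p = 0.148). Its adjusted p was 0.0475 when OXNAC33 replicate 2 was left out and reached 0.303 on leaving out another array. Over the alternatives that kept every array it was 0.0748 to 0.383. The clock-related gene *ZGT* read 1.66, 1.75 and 1.65 in controls and 4.003, 0.62 and 1.87 in OXNAC33 leaves, so that OXNAC33 arrays lay on both sides of the controls (difference 0.48, limma, adjusted p = 0.732). The B-box gene VIT_19s0014g00350 differed by 0.45 (limma, adjusted p = 0.354), with overlap, and its difference went down to -0.24 among the alternatives that kept all arrays. The phytochrome gene *PHYC* differed by 0.31 (limma, adjusted p = 0.329) and the phytochrome-interacting factor annotated PIF3-like 5 by 0.02 (limma, adjusted p = 0.963). A COP1-interacting protein gene (VIT_13s0067g00080) differed by -0.61 (limma, adjusted p = 0.127). The 3 genes of the list with an RCC1 annotation, the domain of which UVR8 is built, differed by -0.69, -0.41 (1 control spot left out) and 0.24. None passed the threshold, and the lower ones were without overlap. A further RCC1 gene (VIT_01s0026g02140), of the list drawn from these same arrays, differed by -1.36 without overlap (limma, adjusted p = 0.0818). The 3 genes not tested were a phytochrome kinase substrate gene and *ASML2*, each well above background on 2 control and no OXNAC33 arrays, and a gene annotated as similar to the phototropin gene *NPH1*, with outlier flags on 2 OXNAC33 arrays.

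A further 18 light-related genes are annotated in the list that the study drew from these same arrays, so that their counts are no independent evidence. All 18 were tested and all 18 were without overlap, 5 higher and 13 lower. Of all probes, 35.5% were without overlap, 15.1% higher and 20.4% lower. The median difference of the 18 was -0.61, against -0.01 for all probes tested. Of the 18, 5 passed the threshold, 3 higher and 2 lower, beside 5.02% of all probes, 1.69% higher and 3.33% lower. *COL2*, of the CONSTANS-like family of B-box factors, read 0.14, 0.11 and -0.41 in controls and 3.10, 2.17 and 2.84 in OXNAC33 leaves, and rose by 2.76 (SE 0.31, limma, adjusted p = 0.0361). *PIF5*, a phytochrome-interacting factor that in *Arabidopsis* promotes growth in shade, read 2.81, 3.29 and 2.41 in controls and 4.05, 4.16 and 4.22 in OXNAC33 leaves. It rose by 1.31 (SE 0.26, limma, adjusted p = 0.0469). A B-box gene (VIT_03s0038g00690) rose by 1.03 (SE 0.20, limma, adjusted p = 0.0463). An NPH3-related gene (VIT_12s0134g00010) changed by -2.77 (limma, adjusted p = 0.0361), with 1 outlier spot left out in each group, and a gene annotated as a CONSTANS-interacting protein by -1.39 (limma, adjusted p = 0.0377). A further NPH3-related gene (VIT_09s0002g05700) differed by -2.55 but spread widely between the OXNAC33 arrays (0.12, 2.82 and 0.17) and did not pass (limma, adjusted p = 0.0878). *CIP1*, which encodes a COP1-interacting protein, differed by 0.94 (limma, adjusted p = 0.0537). Over the alternatives that kept every array its difference ran from 0.24 to 1.19, with an adjusted p of 0.0458 to 0.624. Other genes of this list annotated as COP1-interacting were lower, VIT_09s0002g00740 by -1.03 (limma, adjusted p = 0.0538) and VIT_05s0049g01280 by -0.41 (limma, adjusted p = 0.209). None of these 5 calls held with the session block or without any 1 control array, settings under which no probe was called.

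Of 4 genes for flavonoid enzymes, a class that HY5 activates in *Arabidopsis*, 2 were tested and none was called. The chalcone synthase gene *CHS2* (VIT_14s0068g00920), of the first step of the pathway, read 3.64, 3.53 and 4.02 in controls and 2.37, 2.28 and -0.88 in OXNAC33 leaves. All OXNAC33 arrays were below all controls, and the difference was -2.48 (SE 0.86, limma, adjusted p = 0.125). It was lowest on OXNAC33 replicate 3, without which the difference was -1.41. Of 3 flavonol synthase genes, VIT_18s0001g03430 differed by 0.14 (limma, adjusted p = 0.808). The other two were on no control array above background, and well above it on 1 and 2 OXNAC33 arrays, and were not tested.

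The genes whose levels were most like those of each of the 5 over the 6 arrays were sought among 41 candidates with values on every array, taken from the lists above and the other members of the 5. *COP1* was most like *COL2* (Pearson's r = 0.974), the B-box gene VIT_03s0038g00690 (0.974) and *PIF5* (0.933). *CRY1* was most like *CIP1* (0.915), *PIF5* (0.876) and the same B-box gene (0.860). *HY5* was most like the clock gene *GIGANTEA* (0.921) and *ZGT* (0.895), followed by *HYH* (0.892). *HYH* was most like *COL2* (0.924) and *GIGANTEA* (0.911). For *UVR1* the highest value was 0.715, with the B-box gene VIT_19s0014g00350, followed by 0.656 with the flavonol synthase gene VIT_18s0001g03430 and 0.587 with an RCC1 gene (VIT_01s0137g00230). These values rest on 6 arrays in 2 groups and contain the difference between the groups. The genes named for *COP1* and *CRY1*, and *COL2* for *HYH*, come from the list drawn from these same arrays. Their high values are therefore no independent evidence.

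**Figure D4:**
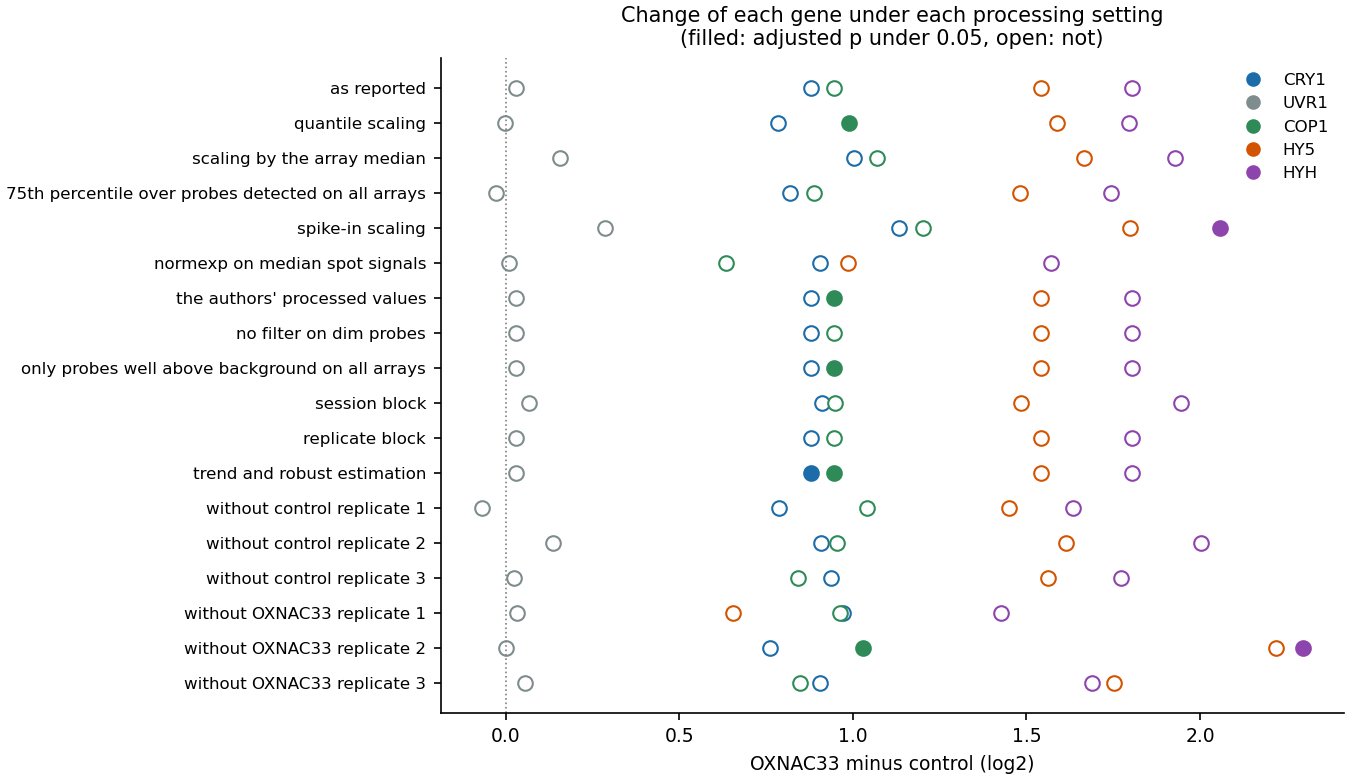
Difference between OXNAC33 and control leaves on the log2 scale (horizontal axis) for each of the 5 genes under each processing setting (rows), filled where the adjusted p was under 0.05. *CRY1*, *COP1*, *HY5* and *HYH* lay above 0 in every row, *HY5* from 0.65 to 2.22, and *UVR1* lay on both sides of 0, from -0.07 to 0.29.

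Under every setting run, *CRY1*, *COP1*, *HY5* and *HYH* had a higher mean in OXNAC33 leaves. Over the settings that kept all arrays, the difference ran from 0.79 to 1.13 for *CRY1*, 0.63 to 1.201 for *COP1*, 0.99 to 1.80 for *HY5* and 1.57 to 2.06 for *HYH*. Leaving out single arrays gave 0.76 to 0.97 for *CRY1*, 0.84 to 1.04 for *COP1*, 0.65 to 2.22 for *HY5* and 1.43 to 2.30 for *HYH*. Spike-in scaling moved the median of all probes to 0.25, scaling by the array median moved it to 0.11 and normexp to -0.23, so that these 3 settings also shift all other probes.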

How the data were processed

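Agilent Feature Extraction 10.5.1.1 files of 6 single-colour (Cy3) arrays were used, and identifiers are those of the array files (Genoscope annotation). The deposited intensity had been corrected by the authors for background and spatial trends, but not scaled between arrays, and flags were used as deposited. The table of 23080 probes that the authors deposited holds the same intensity values times 1 constant per array (within 1% for 100% of its values). Processed intensities were log2 transformed and the 75th percentile of each array was subtracted; spots with outlier flags were left out. A probe was tested where every array of 1 group or more showed it well above background, with 2 or more values per group (23907 of 34369), using limma 3.58.1 in R 4.3.3 (lmFit, eBayes, two-sided). The script was tested on simulated data. The number of arrays limits the precision.

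Header times gave 2 scan sessions, with 1 control and 2 OXNAC33 arrays in the first and 2 and 1 in the second; the slide was not used as a block, since the headers repeat 1 slide label in both sessions. The 5 genes and all lists were chosen with earlier results of these data known. Named genes are the 5, those called in each list, and the 3 (first list) or 2 (list from these arrays) largest differences in each direction. *PHYC*, PIF3-like 5, *CIP1*, *GIGANTEA*, the COP1-interacting protein genes, VIT_00s0361g00090 and the RCC1 genes were added after their values were seen. Names come from tables of the study or the chosen list; the RefSeq table held 0 identifiers of this form. Probe, promoter and protein sequences were not used here. Alternatives were other scalings, normexp (offset 50), the authors' values, other filters, session and replicate blocks, trend and robust estimation, the t-test of the methods, and leaving out each array.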

Additional observations from a re-analysis of the deposited data

How the results depend on the processing

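Normexp used the median spot signal, a choice made after seeing the data. The count of 5 light genes called, 0 as reported (limma), was 1 with quantile scaling, spike-in scaling, the authors' processed values and only probes detected on all arrays (5.68%, 3.67%, 6.16% and 5.81% of all probes), 2 with trend and robust estimation (7.55%) and 3 by the methods' t-test unadjusted (24.3%). *CRY1* (0.88) passed with trend and robust estimation and by the methods' t-test unadjusted. *COP1* (0.95 and 0.99 with quantile scaling) passed with the authors' values (0.95), the stricter filter, trend and robust estimation and the same t-test. *HYH* passed with spike-in scaling (2.06) and the t-test (1.80). *UVR1* turned to -0.00066 with quantile scaling and -0.029 with the percentile over detected probes; without single arrays it ran from -0.069, without control replicate 1, to 0.14. Without single arrays, *HYH* ran from 1.43 to 2.30 and *COP1* from 0.84 to 1.04, both passing without OXNAC33 replicate 2, and the count of light genes ran from 0 to 2.

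The count of 1 among the wider light genes was 0 with spike-in scaling, normexp, no filter, the session block, the replicate block and the t-test after Benjamini-Hochberg adjustment, 5 by the unadjusted t-test, and 0 to 3 without single arrays. The 1200 calls over all probes became 0 in limma with normexp, no filter, the session block and the replicate block (5188, 6314, 6844 and 5997 probes at an unadjusted p under 0.05), 1806 with trend and robust estimation, 5805 by the t-test unadjusted and 2 after adjustment, and 0 to 2554 without single arrays; these were 0 without any 1 control, 9, 2554 and 1 without OXNAC33 replicates 1, 2 and 3. The causes were not tested. Whether replicate numbers pair the arrays cannot be settled with 3 arrays per group. Same-numbered deviations correlated at 0.257, -0.221 and 0.185, and different-numbered ones at -0.410 to 0.273. With the replicate block none of the 5 light genes passed (*CRY1* 0.88, adjusted p = 0.116).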
